A study of Mus musculus with 4 samples.

Results

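The genes described here are 10 genes whose transcription is known to follow bone morphogenetic protein (BMP) signalling: the inhibitor of differentiation genes Id1, Id2, Id3 and Id4, the inhibitory SMAD genes Smad6 and Smad7, the decoy receptor gene Bambi, the homeobox genes Dlx3 and Msx2, and the basic helix-loop-helix gene Atoh8. They were chosen by name, and all probe sets annotated to them were taken. For 9 of the 10 genes the array annotation listed at least 1 probe set, 15 in all of the 45141 on the array. No probe set carried the name Atoh8 there, so Atoh8 is not analysed here.

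RNA came from 4 cultures of mouse colon adenoma organoids, 3D cultures of tumour epithelium, on a C57BL/6 background, hybridised to 4 Affymetrix arrays. In the first group, with 2 arrays labelled Apc null, the genotype was VillinCreERT2, Gata6+/+, Apcfl/fl. The second, with 2 arrays labelled Gata6 null/Apc null, was VillinCreERT2, Gata6fl/fl, Apcfl/fl. Both groups thus lack Apc, the Wnt pathway suppressor, and the second in addition has both Gata6 alleles floxed; Gata6 encodes a GATA-binding factor of endoderm-derived tissue. The Villin promoter limits the inducible Cre recombinase to intestinal epithelium. The sample titles end in A or B, with 1 array of each group under each letter. This letter is taken here as the batch. The organoids were kept for 7 days in medium that held EGF at 50 ng/ml, and the listed components include no BMP ligand and no BMP antagonist. The labels call the samples biological replicates but name no mice, so the p-values may measure only the spread between cultures, and the age of the mice is not given in the sources used here.

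BMPs are secreted ligands that join type I and type II receptor kinases. The type I receptor phosphorylates SMAD1, SMAD5 and SMAD9, which enter the nucleus with SMAD4 and switch on target genes within hours. Id genes are the classical immediate targets, and Smad6, Smad7 and Bambi are induced as feedback inhibitors that damp the same signal. In the colon, BMP activity is low at the crypt base and high towards the surface, where it favours differentiation over stem cell renewal. The comparison of the groups asks how these readouts of the pathway stand when Gata6 is floxed in addition to Apc.

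The start regions of 5 members are shown so that genes called as different between the groups can be set beside genes that were not. Called here means in the limma fit with the batch as a block, as no member was called without it. Id2, Id3 and Smad6 belong to the first kind and Id4 and Msx2 to the second. The sequences are the RefSeq windows of 300 bases on GRCm38.p6, from 250 bases before the transcript start to 50 after it, 5′ to 3′ on the strand of the gene. The Smad6 window differs in that 224 of its bases precede the gene start annotated for Smad6. They lie at chr12:25096043-25096342 on the minus strand for Id2, chr4:136143572-136143871 on the plus strand for Id3, chr9:64022010-64022309 on the minus strand for Smad6, chr13:48260866-48261165 on the plus strand for Id4 and chr13:53472731-53473030 on the minus strand for Msx2. Capitals mark matches, on either strand, to any of the following letters: GGCGCC or GGAGCC, known as sites of SMAD1 and SMAD5, CAGAC, the SMAD binding element, AGATAA or else TGATAA, bound by Gata6 and its relatives, and CTTTGAA or else CTTTGAT, bound by TCF and LEF factors.
Id2: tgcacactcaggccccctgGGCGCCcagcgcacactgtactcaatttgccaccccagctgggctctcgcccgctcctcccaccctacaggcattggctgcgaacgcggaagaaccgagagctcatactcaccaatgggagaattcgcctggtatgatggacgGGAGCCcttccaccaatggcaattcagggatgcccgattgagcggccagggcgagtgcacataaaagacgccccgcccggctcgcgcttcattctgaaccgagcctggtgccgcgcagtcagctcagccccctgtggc
Id3: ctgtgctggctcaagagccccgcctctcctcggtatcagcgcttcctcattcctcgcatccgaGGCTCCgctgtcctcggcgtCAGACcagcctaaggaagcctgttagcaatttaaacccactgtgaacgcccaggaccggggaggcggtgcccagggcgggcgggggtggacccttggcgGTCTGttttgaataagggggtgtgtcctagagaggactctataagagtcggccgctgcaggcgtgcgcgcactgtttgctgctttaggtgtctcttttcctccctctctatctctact
Smad6: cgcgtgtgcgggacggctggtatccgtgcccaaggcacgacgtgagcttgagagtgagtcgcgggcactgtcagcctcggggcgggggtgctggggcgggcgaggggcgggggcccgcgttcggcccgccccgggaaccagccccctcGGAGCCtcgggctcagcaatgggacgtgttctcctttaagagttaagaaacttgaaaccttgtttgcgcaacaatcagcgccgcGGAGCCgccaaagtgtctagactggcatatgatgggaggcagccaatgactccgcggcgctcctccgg
Id4: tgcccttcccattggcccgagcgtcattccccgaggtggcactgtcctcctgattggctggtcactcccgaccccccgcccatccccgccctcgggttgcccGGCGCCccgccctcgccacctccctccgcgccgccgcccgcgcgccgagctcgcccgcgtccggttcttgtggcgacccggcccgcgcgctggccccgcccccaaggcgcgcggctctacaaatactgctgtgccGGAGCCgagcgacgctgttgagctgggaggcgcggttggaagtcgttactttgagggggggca
Msx2: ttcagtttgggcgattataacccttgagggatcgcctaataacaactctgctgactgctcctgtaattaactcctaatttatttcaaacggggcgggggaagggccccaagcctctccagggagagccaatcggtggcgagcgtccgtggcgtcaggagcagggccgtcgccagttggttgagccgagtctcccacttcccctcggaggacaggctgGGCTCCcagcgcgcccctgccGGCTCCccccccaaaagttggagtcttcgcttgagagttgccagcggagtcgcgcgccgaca
GGAGCC was found in all 5 windows, with 1 match each in Id2, Id3 and Id4 and 2 each in Msx2 and Smad6, and 30.8% of all 32851 windows of this length hold it. The window of Atoh8, a member that is not analysed here and whose sequence is not shown, held no match to any of the letters listed. GGCGCC, which 11.9% of windows hold, had 1 match each in Id2 and Id4. CAGAC, which 49.6% of windows hold, had 2 matches in Id3 and was in none of the other windows shown. No window shown held AGATAA (11.2% of all windows), TGATAA (9.05%), CTTTGAA (5.14%) or CTTTGAT (3.73%). The letters GGAGCC therefore occurred in members that were called and in members that were not. All 5 windows are richer in G and C than the median window (52.7%), with Id4 at 73.3% and Msx2 at 61.0%. The shares given are over all windows and are not matched for G and C content. A match describes letters in this window and shows no binding.

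Values are log2 units on the authors' RMA scale, in which a step of 1 is a doubling, and every difference is the mean of the arrays labelled Gata6 null/Apc null minus that of the Apc null arrays. A gene was called when its adjusted p in the limma fit across all genes was under 0.05. Array medians lay between 4.91 and 5.04. The targeted gene itself read against its label. For Gata6, the brighter probe set gave 8.89 and 8.61 (batches A and B) in the Apc null group. In the group labelled Gata6 null/Apc null it gave 9.37 and 9.40. Its limma adjusted p over all probe sets was 0.0410 blocked by batch and 0.737 without the block. The other Gata6 probe set gave 8.83 and 8.65 against 9.11 and 9.21. Its difference of 0.42 did not pass (limma adjusted p = 0.178 over all probe sets, blocked by batch). Whether these probe sets lie in the deleted part of Gata6 is not known here, so the direction of each difference rests on the labels. The epithelial markers were bright: all 12 of 12 were above the level filter of 4.45, Epcam among them at 11.29 to 11.53. Cdx2, an intestinal homeobox factor of that list, differed by -1.57 (adjusted p = 0.00545 with the batch as a block). Of markers of other cells, 2 of 10 of fibroblasts, 5 of 10 of endothelium and 5 of 9 of immune cells were above the filter. The brightest, named after their values were seen, were Pdgfrb (4.64 to 5.04) of fibroblasts, Egfl7 (6.23 to 6.37) of endothelium and Cd14 (6.06 to 7.36) of immune cells. The fibroblast collagen gene Col1a1 read 4.15 to 4.34, Cdh5 of endothelial junctions 4.45 to 4.62 and Ptprc, the common leukocyte antigen, 3.07 to 3.25. In bulk RNA, fewer cells that express a gene and less RNA per cell cannot be told apart.

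Of the 9 members measured, 7 were higher in both arrays labelled Gata6 null/Apc null than in both Apc null arrays, and Id4 and Msx2 were not. Among all 11874 genes tested, 14.7% were separated in that direction and 17.3% in the other, in which no member was. The member differences ran from -0.17 for Msx2 to 2.03 for Dlx3, with a median of 1.07 against -0.03 over all genes. The median was 1.21 within batch A and 0.96 within batch B. With genotype as the single term, 0 of 9 members passed in limma, where 0.522% of all genes passed as higher. In that limma fit 6 members had an unadjusted p under 0.05, as had 946 of the 11874 genes tested. Arrays that share a title letter were taken as a pair. With this batch letter as a block, 6 of 9 members passed as higher: Id2, Id3, Smad6, Smad7, Bambi and Dlx3. In that fit 3.91% of all genes passed as higher and 2.97% as lower, and no member was lower. The members were named with results of these data known, so these counts describe them. An exact permutation test of 2 arrays against 2 cannot give a two-sided p under 0.333. All 9 members had group means above the level filter in both groups, so none was tested through its high group alone.

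**Figure D1:**
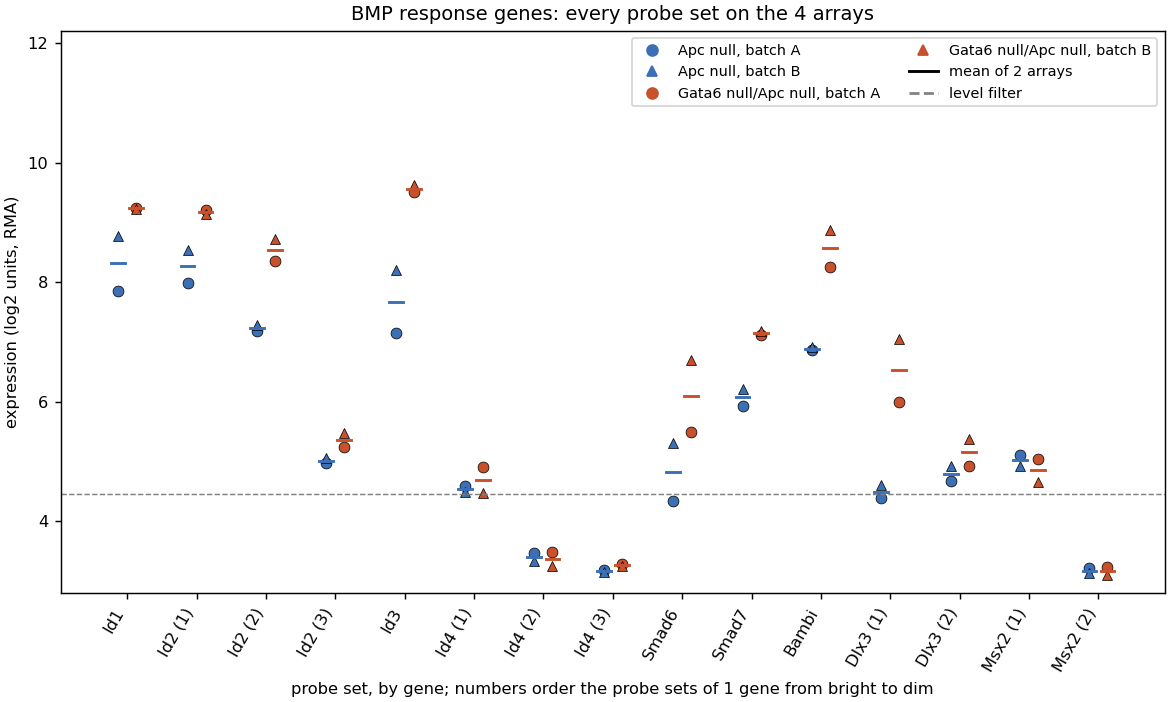
Expression in log2 units (vertical axis) of all 15 probe sets of the 9 measured members, with 1 point per array and a bar at the mean of each group of 2. The points of Id3, Bambi, Smad7 and the brighter Id2 and Dlx3 probe sets separate by group, while those of the brightest Id4 and Msx2 probe sets overlap near the level filter of 4.45; the other Id4 and Msx2 probe sets lie below it.

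Id1, Id2 and Id3 encode small helix-loop-helix proteins with no DNA-binding region, which bind E proteins and keep them off DNA. Id3 had the largest difference of the 4 Id genes. It read 7.15 and 8.20 in the Apc null arrays of batches A and B and 9.50 and 9.62 on the arrays labelled Gata6 null/Apc null. Both arrays of the second group were thus above both of the first, by 2.35 within batch A and 1.42 within batch B. The difference was 1.89 (SE 0.39, 3.70-fold), with an adjusted p of 0.208, or 0.00793 once the batch was a block. Of all genes tested, 98.5% had a smaller absolute difference than Id3.

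Id1, the member most often used as a readout of BMP signalling, read 7.85 and 8.78 in the Apc null arrays and 9.24 and 9.23 on the arrays labelled Gata6 null/Apc null. The groups did not overlap, but the gap was 1.38 within batch A and 0.46 within batch B. Its difference of 0.92 (SE 0.35, 1.89-fold) did not pass, with an adjusted p of 0.613, or 0.0728 with the block. Leaving out the batch A array of the Apc null group gave 0.46, and leaving out its batch B array gave 1.38. Id1 passed in 2 of the 5 block settings run. These were the block with dim genes not filtered out (adjusted p = 0.0372) and the block with arrays shifted to a common median. It did not pass with the block and the mean of all probe sets (adjusted p = 0.0823) or no trend in the moderation (adjusted p = 0.164). These alternatives to the block as reported were chosen after seeing the data.

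Id2, which is also known as a target of Wnt signalling, had 3 probe sets. The brightest read 7.99 and 8.55 in the Apc null arrays and 9.20 and 9.14 on the arrays labelled Gata6 null/Apc null. It differed by 0.90 (SE 0.26, 1.87-fold), with an adjusted p of 0.385, or 0.0356 with the block and 0.105 with the block and no trend in the moderation. A second Id2 probe set read 7.19 and 7.29 against 8.35 and 8.73. Its difference of 1.30 passed with the block over all probe sets (limma adjusted p = 0.00485), where 1.85% of all probe sets passed as higher. The third probe set, at 4.98 and 5.06 against 5.24 and 5.47, differed by 0.34 and did not pass (limma adjusted p = 0.609 over all probe sets, blocked by batch). All 3 were higher in both arrays of the second group, and the size of the difference depended on the probe set.

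Id4 did not separate the groups. Its brightest probe set read 4.60 and 4.49 in the Apc null arrays and 4.92 and 4.48 on the arrays labelled Gata6 null/Apc null, so the groups overlapped and the batches differed in sign. The difference was 0.15 with a 95% interval of -0.34 to 0.65, or -0.23 to 0.54 with the block. The other Id4 probe sets read 3.16 to 3.49 on the 4 arrays, below the level filter. The dimmest of them read 3.18 and 3.16 against 3.28 and 3.26, so its groups did not overlap. Signal this near the array floor limits what can be seen, and Id4 is known as a gene of neural and glandular tissue more than of colon epithelium.

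The inhibitory SMADs act inside the cell: SMAD6 competes for SMAD1 and is the more selective for BMP signalling, and SMAD7 blocks type I receptors of the BMP and the TGF-beta branch. Smad6 read 4.34 and 5.32 in the Apc null arrays and 5.49 and 6.70 on the arrays labelled Gata6 null/Apc null. Each batch showed the gap, 1.15 in A and 1.38 in B, on top of a difference between batches of 0.97 in the first group and 1.20 in the second. The difference of 1.27 (SE 0.53, 2.41-fold) had an adjusted p of 0.692, which was 0.0125 with the block. Leaving out the batch B array of the group labelled Gata6 null/Apc null gave 0.67, and leaving out its batch A array gave 1.87. The Apc null array of batch A was below the level filter for Smad6, so this fold rests in part on a value near the array floor.

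Smad7 varied less between batches. It read 5.94 and 6.22 in the Apc null arrays and 7.12 and 7.18 on the arrays labelled Gata6 null/Apc null. The groups were well apart, by 1.19 within batch A and 0.96 within batch B. The difference was 1.07 (SE 0.24, 2.10-fold), with an adjusted p of 0.251, or 0.0260 with the block.

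Bambi encodes a membrane protein that resembles a type I receptor without the kinase and so blocks signalling by BMPs and activins; it is known as a Wnt target too. Bambi read 6.87 and 6.92 in the Apc null arrays and 8.25 and 8.88 on the arrays labelled Gata6 null/Apc null. The first group was tight and the second spread over 0.63. The difference of 1.67 (SE 0.30, 3.19-fold) had the smallest p of the members, with an adjusted p of 0.146, or 0.00693 with the block. Among the 11874 genes, 98.0% had a smaller absolute difference than Bambi.

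Dlx3, a homeobox gene of skin and placenta that BMP signals induce, read 4.39 and 4.61 in the Apc null arrays and 6.01 and 7.05 on the arrays labelled Gata6 null/Apc null. The first group lay around the level filter, with batch A below it, and the second above it. The difference was 2.03 (SE 0.39, 4.08-fold), a size that rests in part on values near the array floor, with an adjusted p of 0.169, or 0.00748 with the block. When the batch A array of the group labelled Gata6 null/Apc null was left out, the difference was 2.55. Leaving out the batch B array of that group gave 1.51. Both leave 1 array in that group, whose spread is then not measured, so the differences alone are given. The other Dlx3 probe set did not separate the groups: it read 4.67 and 4.92 against 4.92 and 5.39, with a difference of 0.36 (limma adjusted p = 0.556 over all probe sets, blocked by batch). The call therefore rests on 1 of the 2 Dlx3 probe sets.

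Msx2, a homeobox gene induced by BMP in limb and tooth and also reported as a Wnt target, did not separate the groups either. Its brighter probe set read 5.12 and 4.92 in the Apc null arrays and 5.04 and 4.66 on the arrays labelled Gata6 null/Apc null. The groups overlapped, and the difference of -0.17 had a 95% interval of -0.68 to 0.35, or -0.55 to 0.21 with the block. The other Msx2 probe set read 3.11 to 3.23 on all 4 arrays, below the level filter.

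**Figure D2:**
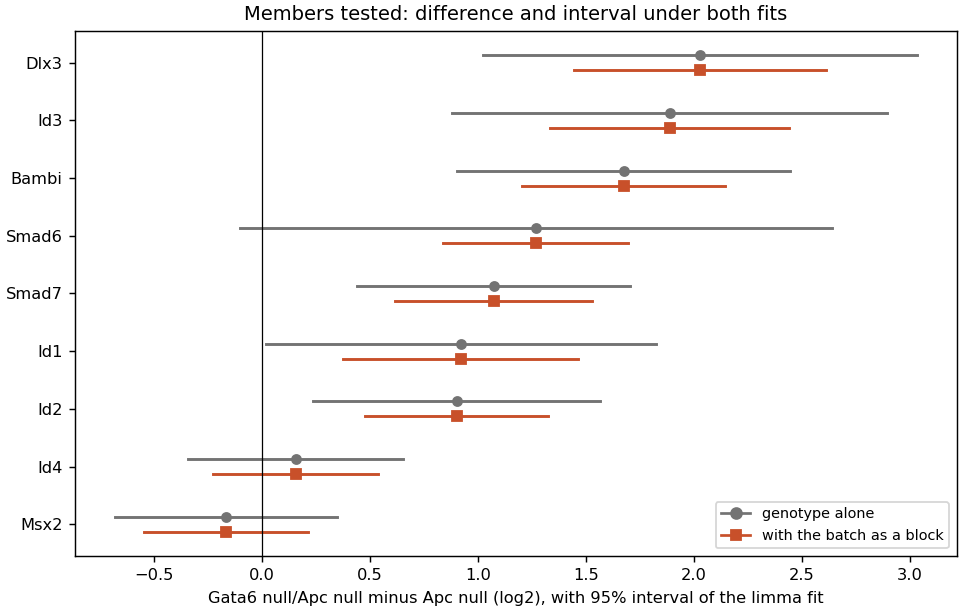
Difference of each member tested in log2 units (horizontal axis), arrays labelled Gata6 null/Apc null minus Apc null arrays, with the 95% interval of the limma fit with genotype alone (grey circles) and with the batch as a block (orange squares). Intervals are those of single genes without adjustment; those of Id4 and Msx2 cross 0 in both fits, and that of Smad6 runs from -0.10 to 2.64 without the block and from 0.84 to 1.70 with it.

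The members fell into different patterns across the batches. Among the brighter Id genes, the Apc null array of batch B was above that of batch A, by 0.92 for Id1, 0.56 for the brightest Id2 probe set and 1.05 for Id3. On the arrays labelled Gata6 null/Apc null the batches were close for the same genes, with steps from A to B of -0.00 for Id1, -0.06 for Id2 and 0.12 for Id3. Bambi and Dlx3 showed the reverse, with steps of 0.05 and 0.22 in the Apc null arrays and 0.63 and 1.04 in the other group. Smad6 stepped up in both groups. The median absolute step over all genes was 0.26 in the Apc null arrays and 0.28 in the others. As a result the gap between the groups was larger in batch A for Id1, Id2, Id3 and Smad7 and larger in batch B for Smad6, Bambi and Dlx3. The second Id2 probe set did not share the pattern of the first, with steps of 0.10 and 0.38. With 1 array per group in a batch, whether the step between batches differed between the groups cannot be tested, and these patterns are a description.

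**Figure D3:**
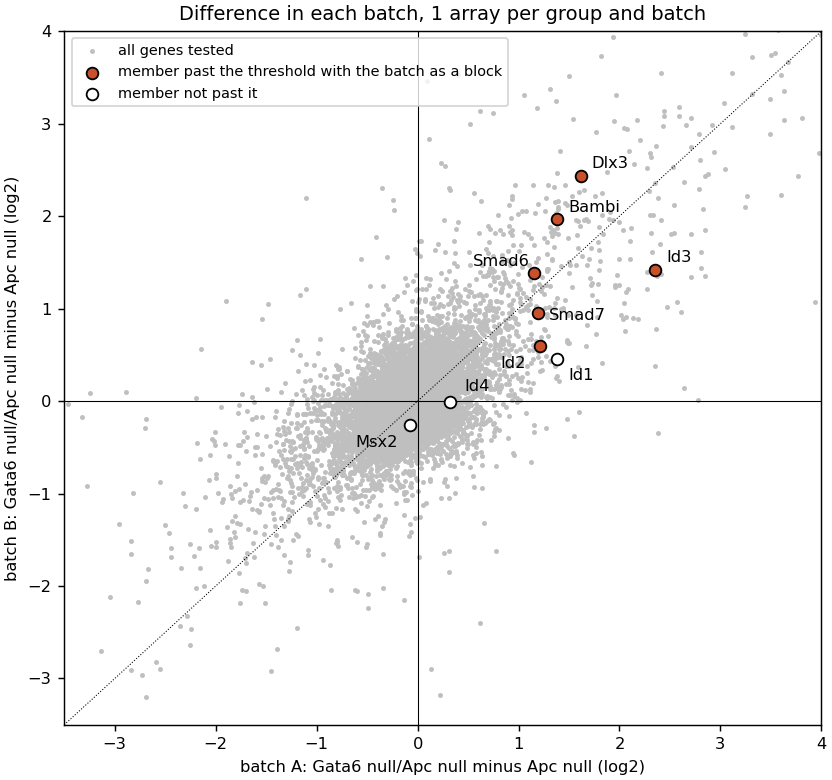
Difference between the groups in batch A (horizontal) and in batch B (vertical) in log2 units, with 1 array per group and batch; grey points are the 11874 genes tested, 43 of which lie outside the axes, and the dotted line marks equal differences. The 6 orange members, called with the batch as a block, lie in the upper right, with Id3 at 2.35 and 1.42 and Dlx3 at 1.62 and 2.44, and Msx2 lies at -0.08 and -0.26.

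The levels of single members were followed by other genes with nearly the same shape over the 4 arrays. Likeness was measured as the root mean square distance between profiles centred on their own mean. It was taken over the genes tested, leaving out those with predicted or clone names. The 3 genes nearest to Id1 were Evl, Atp11a and Id2, at 0.09 to 0.13 log2 units, and those nearest to Id2 were Tspan5, Atp11a and Hes6. Nearest to Bambi were Shld1, Synpo and Wnt6, at 0.04 to 0.06, and nearest to Smad7 were Fam174b, Ift122 and Gjb5. Smad6 was followed most closely by Cry2, Plxnb1 and Gnb5, and Dlx3 by Col16a1, Npy1r and Prom2. Id3 had no gene within 0.1, and its nearest were Hoxd11, Tmem53 and Cep112 at 0.14 to 0.15. By contrast, 477 genes lay within 0.1 of Id4 and 919 within 0.1 of Msx2, as flat profiles resemble each other. With 4 arrays, a small distance says only that the 4 values move alike.

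Upstream of the members, the ligands were mixed. Of 7 ligand genes tested, Bmp7 passed without the block. It read 4.80 and 4.81 in the Apc null arrays and 7.74 and 7.50 on the arrays labelled Gata6 null/Apc null (difference 2.81, adjusted p = 0.0253). With the block, 2 ligands were higher and 1 lower. Besides Bmp7 these were Bmp2 (2.21) and Bmp8b (-1.43), named after their values were seen. The list median was 0.75. None of 9 receptor and co-receptor genes passed in either fit, with a median of -0.09. The smallest p-values there belonged to Rgmb, a BMP co-receptor (-0.68, adjusted p = 0.617), and Tgfbr3, which encodes betaglycan (0.64, adjusted p = 0.535). The Apc null mean of Tgfbr3, 4.44, was below the level filter, so Tgfbr3 was tested through its high group alone. Among the 4 transducing SMAD genes, Smad1 passed as higher with the block (0.99, adjusted p = 0.0155). The median of these 4 genes was 0.32.

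Inhibitors outside the members gave few calls. Of 9 secreted antagonists tested, Fst, the activin and BMP trap follistatin, was the single one called with the block. It read 5.12 and 5.57 in the Apc null arrays and 8.38 and 7.79 on the arrays labelled Gata6 null/Apc null (2.74, adjusted p = 0.0583, and 0.00467 when blocked by batch). The list median was 0.23. None of 10 intracellular SMAD regulators passed in either fit, and their median was 0.01. The smallest p-values were those of the ubiquitin ligase genes Nedd4l (-0.42, adjusted p = 0.777) and Smurf1 (-0.41, adjusted p = 0.906). The feedback inhibitors Smad6, Smad7 and Bambi thus stood higher with the block while no gene of the intracellular regulator list was called; the difference between these lists was not tested.

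Other genes reported to respond to BMP signals did not move as one. Of 12 tested outside the members, 3 were higher and 1 lower with the block, and the list median was -0.02. Tbx3, a T-box repressor and also a known Wnt target, read 4.85 and 5.57 in the Apc null arrays and 8.16 and 8.89 on the arrays labelled Gata6 null/Apc null (3.31, adjusted p = 0.0583, and 0.000531 with the block). Gata2, a further GATA factor, differed by 1.11 (0.0129 with the block), but its Apc null mean of 4.42 was below the level filter, so it was tested through its high group alone. Tsc22d1, a leucine zipper gene, differed by 0.50 (0.0130 with the block). Tnfrsf11b, which encodes osteoprotegerin, went the other way by -0.50 (0.0342 with the block). Of the paralogs of Dlx3 and Msx2, 3 of 7 were above the level filter and none was called: Dlx1 differed by -0.03 and Msx1 by -0.06, with adjusted p-values of 0.955 and 0.889 with the block.

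Smad7 is also induced by TGF-beta through SMAD2 and SMAD3, and Bambi and Id2 by Wnt signals, so the targets of those branches are given beside them. Of 7 TGF-beta target genes tested, none was higher and 3 were lower with the block, with a list median of -0.18. Ccn2, a matricellular growth factor gene, read 7.00 and 8.58 in the Apc null arrays and 4.72 and 6.26 on the arrays labelled Gata6 null/Apc null (-2.30, adjusted p = 0.00183 with the block). The basement membrane collagen gene Col4a1 differed by -0.77 (0.0467 with the block) and the cell cycle inhibitor gene Cdkn2b by -0.67 (0.0488 with the block). Of 12 Wnt target genes tested, 3 were higher without the block: Notum (4.51, adjusted p = 0.0126), Lef1 (4.29, adjusted p = 0.0137) and Nkd1 (3.98, adjusted p = 0.0137). The Apc null mean of Lef1, 3.99, was below the level filter, so Lef1 too was tested through its high group alone, and its size rests on the array floor. With the block, 5 were higher and 2 lower, the others being Sp5 (3.13), Znrf3 (1.62), Lgr5 (-2.47) and Myc (-0.59), named after their values were seen. The Wnt list median was 0.38. Whether Bambi, Id2 or Smad7 followed BMP, Wnt or TGF-beta signals was not tested.

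The partners of the ID proteins were also measured. E proteins are the widely expressed helix-loop-helix factors that ID proteins sequester, and all 3 genes were tested. Tcf4 read 7.50 and 6.99 in the Apc null arrays and 9.38 and 9.47 on the arrays labelled Gata6 null/Apc null (2.18, adjusted p = 0.0571, and 0.00224 with the block). Tcf12 differed by 1.04 (0.0368 with the block), and Tcf3, named after its value was seen, by 0.22 without passing (adjusted p = 0.446 with the block). So 2 of the 3 E protein genes were higher with the block, as were Id2 and Id3. Of 9 other helix-loop-helix genes of the intestine tested, 1 was higher and 2 lower with the block. Hes6, which encodes a Hes family protein that counters Hes1, differed by 0.77 (0.00793 with the block). Atoh1, which drives secretory cell fate, read 8.32 and 7.04 in the Apc null arrays and 6.78 and 6.18 on the arrays labelled Gata6 null/Apc null (-1.20, adjusted p = 0.0309 with the block). Myc was the second lower gene, with a difference of -0.59.

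**Figure D4:**
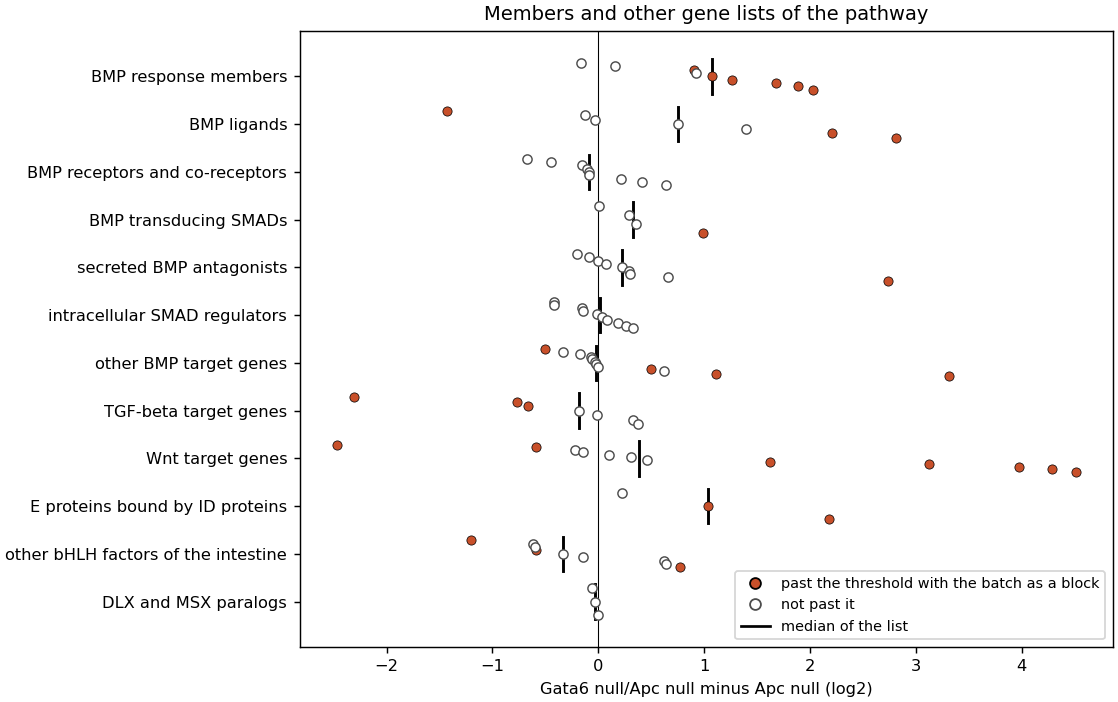
Difference in log2 units (horizontal axis) of each gene tested in the members and 11 other lists; filled points had an adjusted p under 0.05 in the blocked fit, and black bars are list medians. The member median of 1.07 lies to the right of the medians of the receptors at -0.09, the intracellular SMAD regulators at 0.01 and the other BMP target genes at -0.02, while the E proteins are at 1.04.

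Endothelial cells and fibroblasts also express Id genes and Smad6, so their markers are given by group. For the endothelial list, 5 of 10 markers were above the level filter, none was called in either fit, and the level summed over the 10 genes on the linear scale was 283 to 292 in the Apc null arrays and 281 to 298 on the arrays labelled Gata6 null/Apc null. For the fibroblast list, 2 of 10 were above the filter, with sums of 168 to 171 and of 160 to 171. The immune list had 5 of 9 above the filter and sums of 373 to 496 against 238 to 381, with Cd14 at 7.36 and 7.28 against 6.06 and 6.66. Those above the filter were Cd14, Cd68, Lyz1, Cd79a and Csf1r, while Ptprc, Itgam, Cd3e and Tyrobp were below it. Which cells gave the signal of this list was not tested. The epithelial list had sums of 24234 to 25093 against 21478 to 22337, and all 12 of its differences were below 0. The part of these differences in the member values was not tested.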

How the data were processed

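The authors deposited RMA values on the log2 scale, 1 per probe set, and affy is the package that the submitters' processing notes name, with no version in the sources used here. RMA removes array-wide shifts and compresses dim values towards a floor. Per the labels' protocols, 25 ng of total RNA was amplified before labelling, which can add noise to dim probe sets.

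Of 45141 probe sets, 104 were controls and were dropped. Gene names came from GEO's annotation of the platform. The brightest probe set stood for its gene, and a gene was tested if its mean reached the 40th percentile of probe sets (4.45), which 11874 did. The test was limma 3.58.1 (R 4.3.3; lmFit, eBayes with a trend), two-sided, with Benjamini-Hochberg adjustment over all genes, or over all 45037 probe sets without controls where stated. This fit has 2 residual degrees of freedom and the one with the batch letter as a fixed block has 1. The titles give each letter to 1 array of each group, and the batch steps of the groups correlated at 0.675 across genes. The block is therefore printed beside results whose call it changes. The fit was tested on simulated data. Precision is limited by the number of arrays.

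The members, lists and motifs were chosen with earlier results of these data known. All members are named. Of each other pathway list the text names up to 4 genes past the threshold by smallest p without the block, else with it, or the 2 with the smallest p; others are marked. Cell type markers other than Cdx2 were named after their values were seen. Promoter windows were held for 6 of the 10 members. Alternatives were other filters, probe set rules, moderation, scaling and arrays left out.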

Additional observations from a re-analysis of the deposited data

How the results depend on the processing

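The median member difference of 1.07 kept its sign under every alternative run, at 0.78 to 1.38 with 1 array left out and 1.09 with arrays shifted to a common median. The count of members past the threshold without the batch was 0 with all 4 arrays. With the replicate block it was 6 of 9, where 3.91% of all genes passed as higher. Over all probe sets it was 7 of 15 with the block, where 1.85% of all probe sets passed as higher. Chosen after seeing the data, the block gave 7 with no filter on dim genes (3.25% of all genes), 6 of 7 with the mean of all probe sets (3.43%), 5 with no trend, without Id2 (2.21%), and 7 with arrays shifted to a common median (5.68%). The prior degrees of freedom were 45.1 in that last fit and 4.99 in the block fit as reported. Id3, Smad6, Smad7, Bambi and Dlx3 passed in all 5 block settings, and Id4 and Msx2 in none of the 4 that tested them. Genes of the other lists past the threshold numbered 4, and 8 with arrays shifted to a common median. Over all genes, 1.08% passed in either direction with shifted arrays. With the block they numbered 23 (6.88% of all genes passed in either direction), or 24 with no filter (5.87%), 21 with probe set means (6.25%), 14 with no trend (3.55%) and 32 with shifted arrays (10.5%). The cause of these changes was not tested. That 7 members had groups that did not overlap held in the 3 alternatives run. The block fit cannot leave out an array, as no residual degree of freedom would remain. Signal near the array floor limits Id4, Msx2, Smad6 and Dlx3.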
